A study of Mus musculus with 6 samples.

Results

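The ZIC and OTX transcription factors were followed in mouse embryonic stem (ES) cells with and without Med23. The members were the genes Zic1, Zic2, Zic4, Zic5, Otx1 and Otx2, and every probe set that the platform annotation assigns to 1 of these symbols alone was taken. That gave 10 probe sets of 45037 measured, and 6 genes of 18193. Zic5 was read by 3 probe sets, Zic1 and Zic4 by 2 each, and Zic2, Otx1 and Otx2 by 1 each. The members were picked with the knockout against wild-type values already known, so their differences are given as a description, with an error and no test.

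The study compared wild-type ES cells with MED23 knockout ES cells, both of strain 129SV, on 3 Affymetrix arrays per genotype that the labels call biological replicates. All cultures had fresh complete ES cell medium for 24 hours before harvest. Med23 is a subunit of the Mediator complex, which links transcription factors to RNA polymerase II, and the series title names neural differentiation and BMP signalling as its subject. The labels do not say how the knockout was made, whether each genotype is 1 clone, or whether replicates were separate derivations, so the spread between replicates may be partly technical.

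ZIC proteins bind DNA through C2H2 zinc fingers and are relatives of the GLI factors of hedgehog signalling. In the embryo they pattern the neural plate, the dorsal neural tube and the neural crest, and Zic2 also occupies enhancers in ES cells. OTX proteins are homeodomain factors of the bicoid class. Otx2 acts in the epiblast as it leaves the naive state, in the anterior visceral endoderm and then in the forebrain and midbrain, whereas Otx1 is mainly known from the later brain and sense organs.

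The bases in front of the start sites are shown for 3 members that differed in level or direction in these cells: Otx2 and Zic5, which were well above the middle of the array and higher in the knockout, and Zic1, which was low in both groups. RefSeq windows (GRCm38.p6) were found for 4 of the 6 genes. Each run below holds the 250 bases before the outermost annotated start, 5′ to 3′ on the strand of the gene. These are chr14:48667645-48667894 (minus strand) for Otx2, chr14:122465659-122465908 (minus strand) for Zic5 and chr9:91365769-91366018 (minus strand) for Zic1. Capitals would mark a match to the motifs searched, and none of the 3 windows holds one.
Otx2: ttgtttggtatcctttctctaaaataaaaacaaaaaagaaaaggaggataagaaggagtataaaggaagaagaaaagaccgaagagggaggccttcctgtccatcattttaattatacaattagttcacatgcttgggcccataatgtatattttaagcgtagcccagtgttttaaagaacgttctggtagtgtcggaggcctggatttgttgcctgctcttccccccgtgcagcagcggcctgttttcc
Zic5: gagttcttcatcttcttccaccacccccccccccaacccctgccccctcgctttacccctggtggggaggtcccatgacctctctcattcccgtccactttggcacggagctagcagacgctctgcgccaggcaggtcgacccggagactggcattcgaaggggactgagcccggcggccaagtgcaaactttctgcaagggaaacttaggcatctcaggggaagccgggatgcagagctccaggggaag
Zic1: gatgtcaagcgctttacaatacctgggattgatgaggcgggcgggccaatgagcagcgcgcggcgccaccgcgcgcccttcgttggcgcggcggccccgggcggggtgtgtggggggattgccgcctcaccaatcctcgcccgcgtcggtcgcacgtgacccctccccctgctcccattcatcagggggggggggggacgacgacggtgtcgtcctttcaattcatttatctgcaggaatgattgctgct
The Zic1 window has 27 CG dinucleotides and 66% G and C, the Zic5 window 11 and 62.4%, and the Otx2 window 6 and 42%. Over all 32851 RefSeq start windows the medians were 6 CG dinucleotides and 52.4%. The Zic1 window is the richest in CG of the 3 and that of Otx2 sits at the median. The window found for Zic4, which was low on the arrays as Zic1 was, has 4 and 44.4%, but it lies at an internal start. The other Otx2 windows, also at internal starts, have 8 to 14 CG.

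Short motifs of each family were looked for on both strands. The first was TAATCC, the core that bicoid-class homeodomains such as OTX bind. The other was CAGCAGG, a core of the sites bound by ZIC proteins, and the motifs do not overlap each other. Otx2 has 4 annotated start windows, and 1 of them, at an internal start, holds the bicoid core. It lies 211 bases before that start, at chr14:48665303-48665332 (minus strand), reads as the reverse complement, and is shown with its flanks and the core in capitals.
Otx2 internal start: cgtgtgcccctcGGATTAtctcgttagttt
Over all start windows of that length, 6.25% hold the bicoid core and 8.44% the ZIC core. No window of Zic1, Zic4 or Zic5 holds either. A match is a string of letters and not a measured site.

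On the arrays the family split by level. Probe sets of Otx2, Zic5 and Zic2 exceeded 4.62 (log2), the median over all probe sets, in both groups, whereas the 5 probe sets of Zic1, Zic4 and Otx1 lay below it in both. Levels of different probe sets are not comparable, since each binds its target with its own strength. The 5 brighter probe sets, those of 3 genes, had all knockout arrays above all wild-type arrays. Of all probe sets, 18.0% had group ranges that did not overlap with the knockout higher and 14.8% with the knockout lower, and 6.69% were higher and 7.43% lower at a limma adjusted p under 0.05. All 5 were also among the 6.69%, and 0 members among the 7.43%. The members were chosen on this contrast, so nothing is read from these counts.

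Otx2, the homeodomain factor of the epiblast and anterior neural plate, had log2 levels in replicates 1, 2 and 3 of 8.40, 8.32 and 8.36 for the wild type and 9.27, 9.32 and 9.22 for the knockout. The 2 groups were tight and stood 0.82 apart at their closest arrays. The means were 8.36 ± 0.04 and 9.27 ± 0.05 (SD, n = 3 each), and the difference was 0.91 (log2, SE 0.06), or 1.88-fold higher in the knockout.

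Zic5, a zinc finger gene that sits beside Zic2 in the genome and acts in neural crest and neural tube, was read by 3 probe sets. On the brightest of them the wild-type levels were 7.35, 7.57 and 7.41 (log2) and the knockout levels 8.58, 8.79 and 8.45. Every knockout array lay above every wild-type array by at least 0.88. The means were 7.44 ± 0.12 and 8.61 ± 0.17 (SD, n = 3 each), and the difference was 1.16 (log2, SE 0.10), or 2.24-fold. On the second probe set the means were 7.04 ± 0.14 and 8.07 ± 0.08 (SD, n = 3), a difference of 1.03 (SE 0.09). On the dimmest they were 5.40 ± 0.06 and 6.12 ± 0.12 (SD, n = 3), a difference of 0.71 (SE 0.08). The 3 probe sets thus gave the same direction with unequal sizes, and their mean difference was 0.97.

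Zic2, whose loss disturbs the formation of the forebrain midline, had wild-type levels of 5.69, 5.40 and 5.04 (log2) and knockout levels of 6.52, 6.42 and 6.44. The wild-type arrays spread over a wider range than the knockout arrays, and the groups stood 0.73 apart at their closest. The means were 5.37 ± 0.33 and 6.46 ± 0.05 (SD, n = 3 each), a difference of 1.09 (log2, SE 0.15), or 2.12-fold. Wild-type replicate 1, an array that stood apart from its group, was the highest of the 3 wild-type values. Without it the difference was 1.24 for Zic2, 1.11 for the brightest Zic5 probe set and 0.93 for Otx2.

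The probe sets of the other members lay low on the arrays, at the 3.47 to 28.9 percentiles of all probe sets by level. Zic1, a partner of Zic4 in cerebellar development, had wild-type levels of 2.85, 3.05 and 2.85 and knockout levels of 2.73, 2.71 and 2.54 (log2) on its brighter probe set. The groups did not overlap there, but only 0.11 separated them, and both means, 2.91 ± 0.12 and 2.66 ± 0.10 (SD, n = 3), were far below 4.62. On its other probe set the groups overlapped, with means of 2.52 ± 0.19 and 2.31 ± 0.10 (SD, n = 3).

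Zic4 had means of 3.34 ± 0.10 and 3.25 ± 0.07 (SD, n = 3) on its brighter probe set, where wild-type replicates 1 and 3 and the highest knockout arrays nearly coincided (3.29 for each wild-type array and 3.29 for knockout replicate 2). On the dimmer one they were 2.71 ± 0.19 and 2.61 ± 0.06 (SD, n = 3). Otx1 had wild-type levels of 3.01, 2.88 and 2.77 and knockout levels of 2.76, 3.01 and 2.54, which overlap. Differences for these 3 genes ran from -0.25 to -0.10 (log2). With no detection calls at hand, a fall from such values could not be told from background, and a small rise could be missed.

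**Figure D1:**
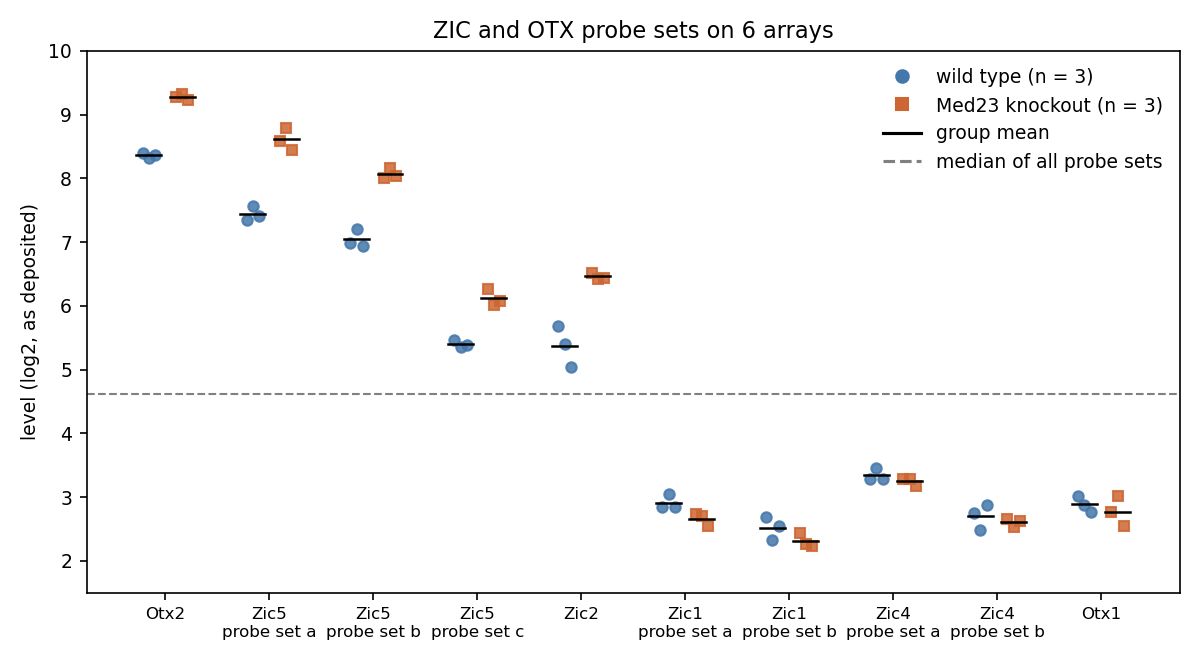
Log2 level of each ZIC and OTX probe set on the 3 wild-type arrays (circles) and the 3 knockout arrays (squares), with group means as bars and the median of all probe sets (4.62) as a dashed line. The 5 probe sets of Otx2, Zic5 and Zic2 lie above the dashed line with the groups apart, and the 5 of Zic1, Zic4 and Otx1 lie below it.

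Across the arrays as a whole, medians lay between 4.61 and 4.64. On wild-type replicate 1, 752 probe sets were down by a factor of 2 or more against the other wild-type arrays and 1 was up by as much. Med23 itself fell from 8.88 ± 0.05 to 7.37 ± 0.04 (SD, n = 3; difference -1.52, SE 0.06, limma adjusted p = 2.69e-05). The Y-linked gene Eif2s3y was at 3.04 in wild-type and 9.87 in knockout arrays, so the lines differed in more than Med23, and its effect cannot be told apart from such differences.

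The 3 brighter members lie on chromosome 14, where transcripts as a group were lower in the knockout. Of 384 genes of chromosome 14 with a mean above 4.62, 188 fell and 27 rose (limma adjusted p under 0.05), and the median difference was -0.40. Over all 11607 such genes, 14.5% fell and 12.2% rose, with a median of 0.02. Zic5, Zic2 and Otx2 ranked 3, 4 and 7 by difference, from the highest, among these 384 genes. Above or between them stood Klf12 (2.01, limma adjusted p = 0.00107), Dgkh (1.21, adjusted p = 0.061), Lmo7 (0.99, adjusted p = 0.000328) and 3830406C13Rik (0.94, adjusted p = 0.000589), which were named after their values were seen. Klf12 passed on 3 of its 5 probe sets, Lmo7 on 1 of 2 and 3830406C13Rik on 1 of 3. Dgkh was at 5.31 in wild-type replicate 1 and at 6.56 and 6.68 in the others. Without that array its difference was 0.77, and Zic2, Zic5 and Otx2 ranked 2, 3 and 5. The members were picked with this contrast and their lower neighbours known, so these ranks are a description.

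The nearest genes were examined in the same way. Around Otx2, the 10 nearest genes on each side with a mean above 4.62 were taken. Of these 20, 15 fell, 0 rose and 5 did not pass (limma adjusted p under 0.05), and at an unadjusted p under 0.05 there were 17 lower and 0 higher. Without wild-type replicate 1, 19 fell. All 20 differences were below 0 (19 without that array), from -1.59 to -0.08, with a median of -0.81. The difference of Otx2, 0.91, lay above all 20 and 1.72 above their median. Otx2 was picked with these values known, so its place among the neighbours is a description. Array by array, Otx2 stood 0.91, 0.96 and 0.86 above its wild-type mean in knockout replicates 1, 2 and 3, while the median of its neighbours stood at -0.86, -0.80 and -0.83 from theirs.

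The gene next to Otx2 on one side, Tmem260, an enzyme gene for protein O-mannosylation, differed by -0.08 (SE 0.09, limma adjusted p = 0.626), the highest of the 20. The gene on its other side, the exocyst subunit gene Exoc5, differed by -0.41 (SE 0.32, adjusted p = 0.496). In wild-type replicate 1 Exoc5 was at 7.15, against 8.46 and 8.33 in replicates 2 and 3, and without replicate 1 it passed with adjusted p = 0.00285. The lowest neighbour was Lgals3, the gene of the sugar-binding protein galectin-3, which fell from 10.81 ± 0.21 to 9.22 ± 0.03 (SD, n = 3; difference -1.59, SE 0.11, limma adjusted p = 0.000166). The antisense neighbour Otx2os1 was at 3.55 ± 0.03 and 3.58 ± 0.13 (SD, n = 3), below the median of the arrays in both groups.

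Zic2 and Zic5 lie side by side towards the end of chromosome 14, and 13 neighbours with a mean above 4.62 were found, 10 on one side and 3 on the other. Of these, 10 fell, 0 rose and 3 did not pass (limma adjusted p under 0.05), with 11 lower and 0 higher at an unadjusted p under 0.05. The median was -0.73 and the range -1.08 to 0.00. Zic2 and Zic5 lay above all 13, by 1.81 and 1.89 over their median. This pair too was picked with these values known, so its place is a description. In knockout replicates 1, 2 and 3 the neighbours' median stood at -0.68, -0.63 and -0.66 from the wild-type means, while Zic2 stood at 1.15, 1.05 and 1.07 and Zic5 at 1.13, 1.34 and 1.01.

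The nearest neighbours of the pair were Clybl, a mitochondrial enzyme gene, with a difference of 0.00 (SE 0.09, limma adjusted p = 0.994), and Pcca, a subunit gene of propionyl-CoA carboxylase, with -0.10 (SE 0.07, adjusted p = 0.463). The lowest was Farp1, which encodes a guanine nucleotide exchange factor and fell from 6.10 ± 0.04 to 5.03 ± 0.07 (SD, n = 3; difference -1.08, SE 0.06, limma adjusted p = 0.000106). The genes adjacent to the pair were thus nearer to 0 than the median of the set. With no minimum level, the mitochondrial import gene Timm8a2, read by a probe set of a kind that can also bind related transcripts, entered the set and rose from 3.78 ± 0.07 to 4.95 ± 0.17 (SD, n = 3; difference 1.17, SE 0.10, limma adjusted p = 0.000424), about as far as Zic5. That wider set of 17 genes had 1 gene higher, 6 lower and a median of -0.10. The wider set of 20 around Otx2 had 9 lower and a median of -0.64, and its highest gene differed by 0.20. The transcript 2610035F20Rik, between Zic5 and Zic2 in gene order, was at 2.55 ± 0.16 and 2.97 ± 0.15 (SD, n = 3; difference 0.41, limma adjusted p = 0.0511), below the median of the arrays.

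Around Zic1 and Zic4 on chromosome 9, 8 of 20 neighbours fell, 1 rose, 10 differences were below 0 and the median was 0.07. The lowest was the cathepsin gene Ctsh (-1.77, SE 0.09, limma adjusted p = 5.90e-05), and the highest Atr, a DNA damage kinase gene that did not pass (0.74, SE 0.42, adjusted p = 0.322). In wild-type replicate 1 Atr was at 6.67, against 8.34 and 8.24 on the others, and without that array its difference was 0.20 and Snx14 was highest (0.33). The nearest genes were Tbc1d2b (-0.23, adjusted p = 0.0432) and Plscr1 (-0.04, adjusted p = 0.819). The count of 8 was 4 to 6 in the fits that left out 1 array, reaching 4 without wild-type replicate 2 and without each knockout replicate, and it was 4 with the replicate number as a block. Tbc1d2b passed in 0 of those 6 fits. Around Otx1 on chromosome 11, 3 of 20 genes rose, 1 fell, 17 differences were above 0 and the median was 0.13. Without wild-type replicate 1, 14 were above 0. Differences between the loci were not tested. The amino acid transporter gene Slc1a4 was highest (0.69, SE 0.09, limma adjusted p = 0.00325), Ahsa2 lowest (-0.33, adjusted p = 0.0175), and the nearest, Mdh1 and Ehbp1, differed by 0.06 and 0.08 (adjusted p = 0.6 and 0.66). Ahsa2 kept its call in 3 of 6 fits when arrays were left out in turn.

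**Figure D2:**
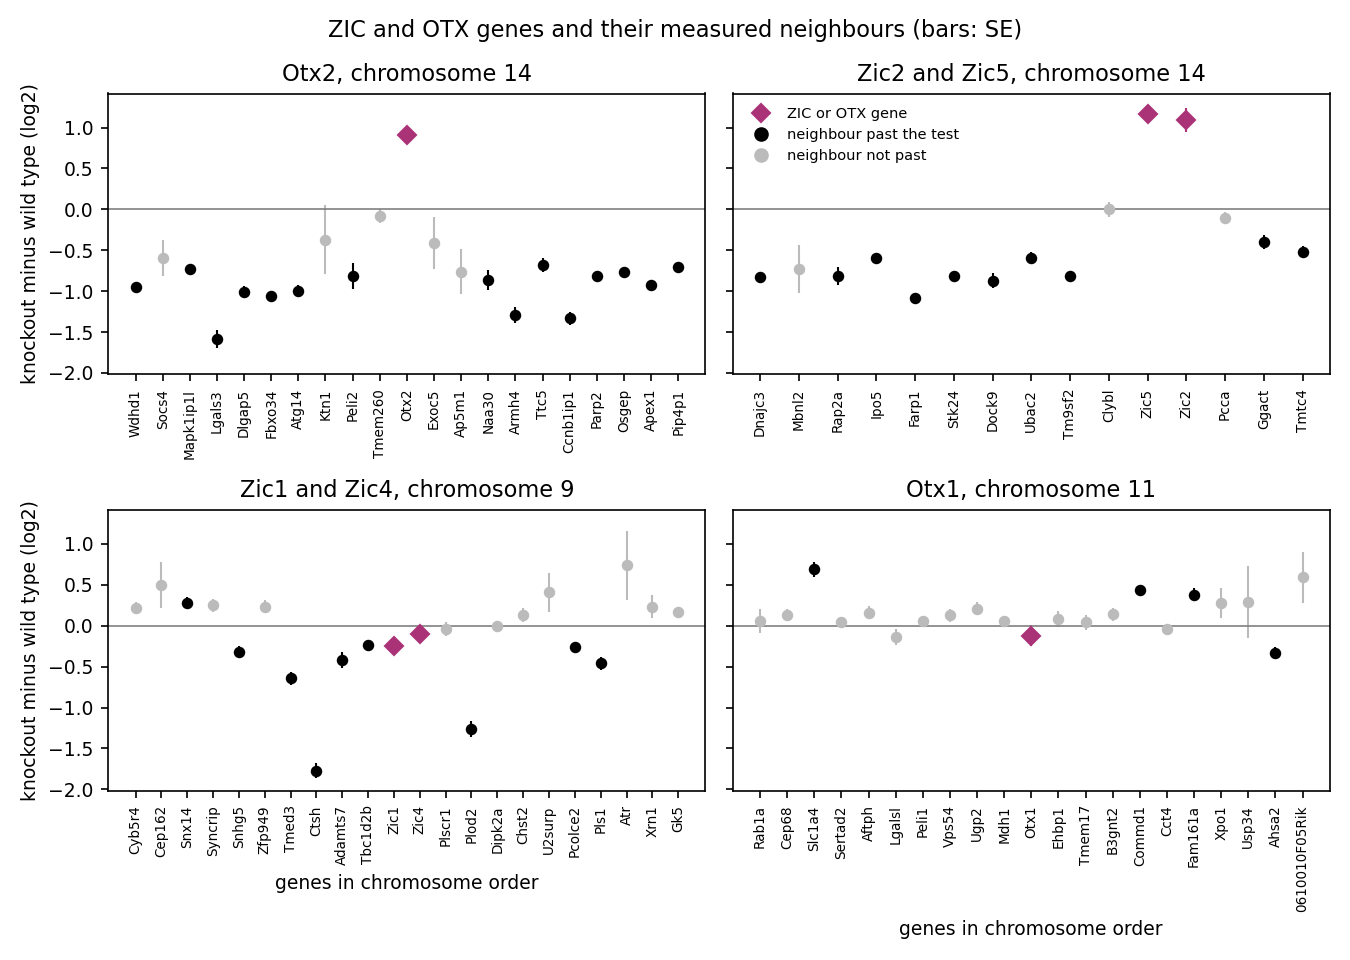
Difference between knockout and wild-type means (log2, SE as bars) for each ZIC or OTX gene (diamonds, brightest probe set) and its measured neighbours in chromosome order. Otx2 (0.91) and the pair Zic5 (1.16) and Zic2 (1.09) stand above 0 among neighbours with medians of -0.81 and -0.73, while Zic1, Zic4 and Otx1 lie within the range of theirs. The ZIC and OTX genes were picked with this contrast known.

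The genes with the most similar course over the 6 arrays were taken as those with the smallest root mean square difference of centred log2 values, among 11604 genes with a mean above 4.62. For Otx2 they were the arrestin-domain gene Arrdc4 (0.0439), the serine carboxypeptidase gene Scpep1 (0.0443) and Tmco6 (0.0471). For Zic5 they were the RNA helicase gene D1Pas1 (0.0911), the scaffold gene Iqgap2 (0.0959) and the adhesion gene Cadm1 (0.102). For Zic2 they were the synaptic gene Rims3 (0.0699), the filamin-binding gene Fblim1 (0.0753) and Mov10l1 (0.0782), a helicase gene of the piRNA pathway. All 9 rose (limma adjusted p under 0.05), and none of them lies on chromosome 14. That chromosome holds 27 of the 1416 genes with a mean above 4.62 that rose, the members included. With so small a share, nothing is read from their absence there. Within each pair of brighter members, 46 to 378 of the 11604 genes were closer to 1 member than the other member was. Between the members the value was 0.168 for Otx2 and Zic5, 0.205 for Otx2 and Zic2 and 0.241 for Zic2 and Zic5. The adjacent pair had the largest of the 3 values, over all 6 arrays and with Zic5 read by its brightest probe set. Wild-type replicate 1 was the highest of its group for Zic2 (5.69) and the lowest on that Zic5 probe set (7.35). It was not the lowest on the second Zic5 probe set (6.98, against 6.94 in replicate 3). On the dimmest it was the highest (5.47). The order of the 3 values was not tested without that array or on those probe sets, so nothing is read from it.

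Genes that work with these factors were read from lists, against a background of 8.53% of 18193 genes higher and 10.4% lower (limma adjusted p under 0.05, 1 probe set per gene). Among 34 relatives and protein partners, 6 rose, 4 fell and 24 did not pass, with a median of 0.00. The GLI factor gene Gli2 rose, with wild-type levels of 9.30, 9.26 and 8.90 and knockout levels of 9.99, 9.99 and 10.01 (difference 0.84, SE 0.11, limma adjusted p = 0.00288), and the TALE homeodomain gene Meis2, whose protein binds OTX2, from 4.18 ± 0.13 to 5.21 ± 0.13 (SD, n = 3; 1.03, SE 0.10, adjusted p = 0.00075). Gli1, a target as well as an effector of hedgehog signalling, fell by 0.84 (SE 0.09, adjusted p = 0.000962). Of other hedgehog pathway genes in the list, Smo rose by 0.66 (SE 0.07, adjusted p = 0.00108). Ptch1, Sufu and Gli3 differed by -0.01, 0.01 and 0.09 (adjusted p = 0.967, 0.966 and 0.533). The methyl-CpG-binding gene Mbd2 fell by 0.97 (SE 0.08, adjusted p = 0.000446). Subunits of the NuRD complex with which ZIC2 has been found, Mbd3 and Chd4, differed by -0.10 and 0.04 (adjusted p = 0.396 and 0.741), while Chd3 (-0.72, adjusted p = 0.0283) and Mta3 (-0.29, adjusted p = 0.0206) fell and Gatad2b rose (0.30, adjusted p = 0.0483). With each array left out in turn, Chd3 and Mta3 passed 3 of 6 times and Gatad2b 1 of 6. The third OTX-class gene, Crx, was at 3.27 and 3.37, below the median of the arrays.

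Formative epiblast genes mark a stage in which Otx2 is active. Of 23 measured, 9 fell, 3 rose and 11 did not pass, with a median of -0.13. The growth factor gene Fgf15 fell from 6.45 ± 0.23 to 4.58 ± 0.23 (SD, n = 3; difference -1.87, SE 0.15, limma adjusted p = 0.000381). The claudin gene Cldn6 differed by -1.59 (SE 0.08, limma adjusted p = 5.90e-05) and the kinase gene Pim2 by -1.31 (SE 0.08, adjusted p = 0.000141). The POU factor gene Pou3f1, a marker of that stage, fell, with wild-type levels of 7.98, 7.97 and 8.05 and knockout levels of 6.90, 7.15 and 6.96 (limma adjusted p = 0.000393). The knockout mean of Fgf15 was just below 4.62, which leaves the size of that fall uncertain. The stage marker Fgf5 was at 3.95 and 3.83, below the median of the arrays. The 3 that rose were the DNA methyltransferase genes Dnmt3a (0.30, adjusted p = 0.0241) and Dnmt3b (0.25, adjusted p = 0.0459) and the WNT effector gene Lef1 (0.35, adjusted p = 0.037). That count of 3 became 0 without wild-type replicate 2 or without any of the 3 knockout replicates, and 0 with the replicate block. The count of 9 lower was 6 to 9 in the fits that left out 1 array, and 6 with the block. Among those that fell, Tdgf1 passed in 1 of these 6 fits and Sall2 and Etv4 in 2 each.

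Anterior neural patterning genes were mostly low on these arrays, with 19 of 26 below 4.62 in both groups. Pax6, the eye and forebrain paired-box gene, was the exception that rose: the wild-type levels were 5.60, 5.44 and 4.39 and the knockout levels 7.31, 7.33 and 7.42. Its difference was 2.21 (SE 0.29, limma adjusted p = 0.00299), and 3 of its 5 probe sets passed. The homeobox genes Gbx2, which meets Otx2 at the midbrain and hindbrain border, Irx3 and Six6 fell by 0.51, 0.45 and 0.33 (adjusted p = 0.00708, 0.0304 and 0.0256), and 22 genes did not pass. Leaving out 1 array gave 1 to 2 genes lower, with 1 left without knockout replicate 1 or without knockout replicate 3. Irx3 and Six6 each passed in 2 of 6 such fits, and neither passed with the replicate block (adjusted p = 0.0591 and 0.0748), whereas Gbx2 passed in all. Six6 lay below 4.62 in both groups. The forebrain gene Six3 was at 4.12 and 4.22, the pituitary and forebrain gene Hesx1 at 6.92 and 7.19 (adjusted p = 0.0745), and Sox1 at 5.78 and 5.86.

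Of 17 genes of the dorsal neural tube and neural crest, the later sites of ZIC action, 0 passed in either direction by limma, with 2 lower and 0 higher at an unadjusted p under 0.05. The median was 0.10, and 10 of the 17 were above 4.62 in at least 1 group.

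The anterior visceral endoderm, the other early site of Otx2, had a list of 14 genes, of which 7 fell, 0 rose and 7 did not pass (limma adjusted p under 0.05), with a median of -0.26. At an unadjusted p under 0.05, 7 were lower and 2 higher. The WNT antagonist gene Dkk1, a known OTX2 target in that tissue, fell from 6.45 ± 0.39 to 3.66 ± 0.09 (SD, n = 3; difference -2.79, SE 0.18, limma adjusted p = 0.000157), and the endoderm factor genes Gata6 and Sox17 fell by 2.59 (SE 0.18, adjusted p = 0.000176) and by 2.45 (SE 0.20, adjusted p = 0.000415). Amot, an angiomotin gene of the Hippo pathway, fell by 2.46 (SE 0.08, adjusted p = 1.83e-05), and 1 of its 3 probe sets passed. Sfrp1, another of the 7, fell by 0.36 (SE 0.08, adjusted p = 0.0225) on its brightest probe set, but 1 of its 5 probe sets rose. With each array left out in turn, Sfrp1 passed 2 of 6 times. The knockout means of Dkk1 and Sox17 were below 4.62, so the sizes of those falls are uncertain. Of the 14 genes, 4 lay below 4.62 in both groups, Cer1, Gsc and Lhx1 among them. Hhex and Eomes differed by 0.26 and 0.41 and did not pass (limma adjusted p = 0.0645 and 0.0804). In these bulk samples, fewer cells of a type and less RNA per cell cannot be told apart.

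**Figure D3:**
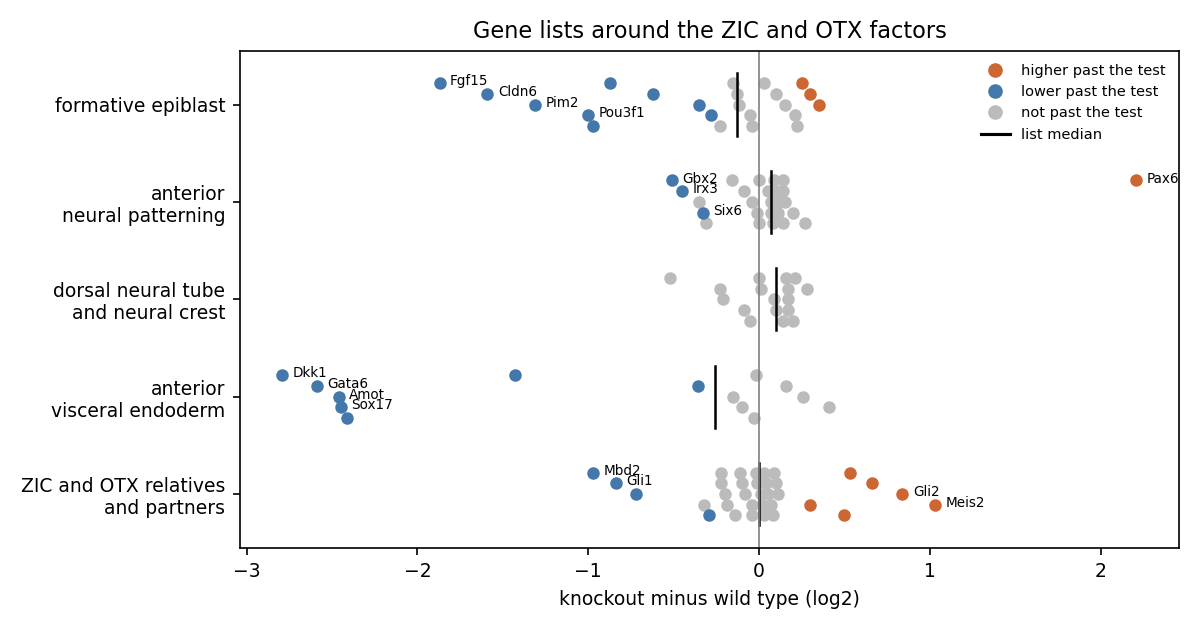
Difference between knockout and wild-type means (log2) for each measured gene of the 5 lists, 1 probe set per gene, coloured by whether it was higher, lower or not past the limma test, with list medians as black bars and the named genes labelled. The falls of the anterior visceral endoderm and formative epiblast lists reach -2.79 and -1.87, and Pax6 stands alone at 2.21.

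Markers of the cells a culture could hold were read beside the members. Of 10 ES cell markers, 3 fell and 0 rose: Tdgf1 (-0.28, limma adjusted p = 0.0454), Fgf4 (-0.37, adjusted p = 0.0214) and Dppa4 (-0.34, adjusted p = 0.0097). With each array left out in turn, Tdgf1 passed 1 of 6 times. Pou5f1 was at 12.96 and 12.92, and the mean level of the 10 was 12.13 to 12.27 in wild-type and 12.16 to 12.19 in knockout arrays. Of 12 extraembryonic endoderm markers, 10 fell and 0 rose, with Gata6, Sox17 and Foxa2 of the anterior visceral endoderm list among them. The mean level of the 12 was 6.52 to 6.98 in wild-type against 4.72 to 4.80 in knockout arrays. Afp and Ttr, products of mature visceral endoderm, were below 4.62 in both groups. Otx2 was higher in the arrays in which these endoderm markers were lower, and their part in its difference was not tested. Of 10 neural markers 1 rose, Pax6, and 3 fell, with mean levels of 5.03 to 5.17 and 4.88 to 4.95. Those that fell were Olig2 (-2.34, limma adjusted p = 0.00135), Map2 (-1.49, adjusted p = 0.00547) and Nes (-0.56, adjusted p = 0.00955). The knockout means of Olig2 and Map2 were below 4.62, which leaves the sizes of their falls uncertain. Map2 passed on 1 of its 4 probe sets. Feeder cells were covered by 9 fibroblast markers, of which 7 were below 4.62 in both groups, Col1a1 and Col3a1 among them. The other two fell, Thy1 (-0.73, limma adjusted p = 0.0203) and Twist1 (-0.61, adjusted p = 0.00189), and the mean level of the 9 was 3.66 to 3.72 in wild-type and 3.53 to 3.64 in knockout arrays.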

How the data were processed

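Total RNA was extracted with Trizol and hybridised as biotin-labelled cRNA to Affymetrix arrays, as the labels' protocols state. The table the authors deposited holds log2 values, 1 column for each of 6 arrays; log2 is inferred from their range because no base is given. RMA and MAS5 appear without a role, per the submitters' processing notes. Values were used as deposited. The 64 array controls among 45101 probe sets were dropped. Symbols came from the platform annotation (34945 probe sets with 1 symbol, 932 with several, 9160 with none), and 34741 were matched by Entrez identifier to RefSeq (GRCm38.p6) for current symbols and gene order. A gene was read by its probe set with the highest mean.

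Knockout and wild-type arrays were compared with limma 3.58.1 in R 4.3.3 (lmFit, eBayes, no trend), as a two-sided test, p values being adjusted by Benjamini-Hochberg over all 45037 probe sets and 0.05 as the threshold (residual degrees of freedom 4, prior 3.08). "Rose" and "fell" mean past that threshold. The fit was checked on simulated data. Differences are knockout minus wild type. The number of arrays limits the precision.

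Members and lists were chosen with earlier results of these data known; Foxd3, Gli3 and Lmx1a stand in 2 lists, and Foxa2, Gata6, Sox17, Ttr, Pax6, Sox1, Sox2, Pou5f1, Tdgf1 and Utf1 in a list and among the cell markers. Named genes were the members, Med23, up to 4 genes of each list with the largest difference past the threshold, the nearest, highest and lowest neighbours, and the 3 genes most like each brighter member; others were named after their values were seen. The replicate number was tried as a block. Same-numbered arrays did not deviate together (correlations of -0.25, -0.16 and 0.02), so it was kept as an alternative. Other alternatives were quantile normalization, median centring, a filter on low values, a trended robust variance, any probe set of a gene, other neighbour windows and leaving out each array.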

Additional observations from a re-analysis of the deposited data

How the results depend on the processing

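Differences ranged from 0.89 to 0.94 for Otx2, 0.92 to 1.24 for Zic2 and 0.97 to 1.24 for the brightest Zic5 probe set, where 0.97 is the mean over its 3 probe sets. Quantile normalization and centring each array moved no count by over 1.5 times.

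Leaving out probe sets at or below the median gave 2 anterior neural and 1 anterior visceral endoderm genes higher and 3 neighbours of Zic1 and Zic4 higher. The trended robust variance gave 2, 2 and 3 of these and 1 dorsal neural tube or neural crest gene lower. Any probe set of a gene gave 1 dorsal gene lower and 1 anterior visceral endoderm gene higher. That higher gene was Sfrp1, which is also among the 7 lower. The replicate block gave 1915 probe sets higher in place of 3013, 0 formative epiblast genes higher, 0 neighbours of Zic1 and Zic4 higher and 4 lower, and 0 neighbours of Otx1 lower; it moved no other count by over 1.5 times. The causes were not tested.

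With 5 neighbours on each side there are fewer genes to count: 6 of 10 fell around Otx2, 6 of 8 around Zic2 and Zic5, 5 of 10 with 0 higher around Zic1 and Zic4, and 0 of 10 with 1 higher around Otx1. With no minimum level, 9 of 20 fell around Otx2, 6 of 17 with 1 higher around Zic2 and Zic5, and 5 of 20 with 0 higher around Zic1 and Zic4.

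Leaving out 1 array gave 1497 to 3494 probe sets higher, 0 to 4 formative epiblast genes higher, 1 to 2 anterior neural genes higher and 1 to 2 lower, 0 to 1 dorsal genes higher and 0 to 2 lower, 0 to 1 anterior visceral endoderm genes higher, 0 to 1 neighbours of Zic1 and Zic4 higher and 4 to 6 lower, and 0 to 1 neighbours of Otx1 lower. Counts of lower neighbours stayed at 14 to 19 for Otx2 and 9 to 10 for Zic2 and Zic5.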

Other observations

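Crxos, the homeobox gene on the opposite strand to the OTX relative Crx, was looked at after its values were seen. On the brighter of its 2 probe sets it rose: the wild-type levels were 4.86, 4.63 and 4.77 and the knockout levels 5.89, 5.96 and 5.80 (difference 1.13, SE 0.08, limma adjusted p = 0.000254), and the groups did not overlap. Its other probe set, with means of 3.34 and 3.65 below the median of the arrays, did not pass (adjusted p = 0.392). Crx itself was below that median on both of its probe sets, with differences of 0.05 and 0.10 (adjusted p = 0.805 and 0.548).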
